A study of Rattus norvegicus with 4 samples.

Results

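Transcript levels of interferon-stimulated and RNA sensing genes were measured by RNA sequencing in INS-1 832/13 cells, a clonal rat insulinoma line that secretes insulin in response to glucose and is used as a β-cell model. The cells were transfected for 36 h either with a non-targeting siRNA (siScramble, control, 2 samples) or with a pool of siRNAs against Tbk1 (siTbk1, 2 samples), and both groups received the same transfection reagent. Polyadenylated RNA was sequenced with a stranded kit, and either group consists of replicates numbered 2 and 3. The labels do not say whether the samples came from separate cultures, so p-values measure only the spread between these samples, which may be technical. Because every sample was transfected with siRNA, an effect of Tbk1 loss and an effect of the siRNA sequences themselves cannot be told apart here.

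The genes were chosen by name as interferon-stimulated genes, RNA sensors, STAT and IRF (interferon regulatory factor) regulators, receptor components and antigen processing genes. Of 48 listed genes, 43 were among the 15172 genes of the deposited table, and Zbp1, Oas1b, Ifit1, Ifit2 and Ifit3 were not analysed here. In the table, 40 of the 43 genes had at least 100 counts summed over the 4 samples, and the other 3 (Isg15, Oasl and Mx1) are described apart. After a filter on low counts 41 genes were tested, and all 41 had at least 10 counts in every sample.

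As background, double-stranded or uncapped RNA in the cytosol is recognised by the helicases encoded by Ddx58 (RIG-I) and Ifih1 (MDA5), which signal through the kinase TBK1 to transcription factors that switch on interferon genes. Secreted type I interferon then binds the receptor chains Ifnar1 and Ifnar2, whose kinases Tyk2 and Jak1 activate STAT proteins, and these, together with Irf9, bind the interferon-stimulated response element (ISRE) upstream of antiviral genes. In β-cells this programme is known for raising chemokines and the surface display of peptides on class I molecules.

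The silenced gene itself was checked first. Tbk1 (chromosome 7, 63655247 to 63687979, build rn6) measured 53.7 and 52.5 CPM in siScramble replicates 2 and 3, and 11.8 and 13.3 CPM in siTbk1 replicates 2 and 3, where CPM is the count scaled to a library of 1000000. Its log2 fold change was −2.08 (standard error 0.076, edgeR adjusted p = 3.7e-08). Total counts lay between 38428926 and 47759013 per sample. The β-cell markers were present, with 10 of 11 listed markers in the table. Their summed level was 18700 to 19600 CPM in siScramble-treated and 14400 to 16000 CPM in siTbk1-treated cells. Ins1 was the largest part of this sum (mean 10740 CPM in siScramble and 6882 CPM in siTbk1 samples). At an edgeR adjusted p under 0.05, Ins1, Ins2, Pdx1, Slc2a2 and Mafa were lower and Iapp, Nkx6-1 and Slc30a8 higher. Nkx2-2 and Chga did not pass, so the β-cell markers did not share a direction. Of 7 leukocyte markers 3 (Cd68, Cd3e and Lyz2) were in the table, and together they reached 0.530 to 0.625 CPM in any sample. The glucagon gene Gcg and the endothelial receptor gene Kdr, the leading entries of the α-cell list (2 of 5 in the table) and the endothelial list (1 of 3), were lower in siTbk1-treated cells, with list sums of 1320 to 1390 against 817 to 880 CPM and of 8.47 to 9.32 against 2.76 to 3.23 CPM. Of 2 δ-cell markers 1 was in the table, at 0.0795 to 0.229 CPM, and no fibroblast marker of 5 was analysed. The part of these markers in the results that follow was not tested.

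Among the interferon-stimulated and RNA sensing genes, 5 were called higher in siTbk1-treated cells and none was called lower. The genes called higher were the chemokine gene Cxcl10, the GTPase genes Gbp2 and Mx2, the oligoadenylate synthetase-like gene Oasl2, and Rsad2, which encodes viperin. A call required an adjusted p under 0.05 by the quasi-likelihood test of edgeR, adjusted after Benjamini and Hochberg across the tested genes, and a fold change of at least 1.5 (0.585 on the log2 scale). The 5 calls were 12.2% of the 41 genes, against 4.81% of all 13953 tested genes called higher, and 6.18% of all tested genes were called lower. DESeq2 and limma-voom also called 0 of the 41 genes lower, against 738 and 859 of all 13953 tested genes. None of the 41 was lower by 1.5-fold at an unadjusted edgeR p under 0.05.

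Cxcl10, which draws activated T cells, lies on chromosome 14 from 17210733 to 17212931 and measured 9.66 and 9.80 CPM in siScramble replicates 2 and 3, and 20.9 and 20.8 CPM in siTbk1 replicates 2 and 3. The normalized count averaged 419 ± 4.09 in the siScramble and 899.7 ± 2.80 in the siTbk1 samples (SD, n = 2 per group), 2.15-fold higher (log2 fold change 1.10, standard error 0.082, edgeR adjusted p = 2.1e-06). The groups did not overlap, and samples of a group lay close together. Since RNA was taken from whole cultures, more expressing cells and more RNA per cell cannot be told apart for this or any other gene described. Gbp2 (chromosome 2, 248276709 to 248293785), an interferon-inducible guanylate-binding protein gene, measured 4.58 and 4.57 CPM in siScramble and 10.5 and 11.4 CPM in siTbk1 replicates 2 and 3. Its log2 fold change of 1.25 (standard error 0.11, edgeR adjusted p = 5.9e-06) corresponds to 2.39-fold, and the groups did not overlap. Cxcl10 and Gbp2 were called in each of the 15 alternative analyses, with log2 fold changes of 1.05 to 1.20 and of 1.20 to 1.30. Among these analyses is the main fit without the fold change limit, which every called gene passes by definition.

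Mx2, a dynamin-like GTPase gene, was measured at 2.17 CPM in both siScramble samples and at 4.53 and 4.32 CPM in siTbk1 replicates 2 and 3. Its log2 fold change was 1.03 (standard error 0.15, edgeR adjusted p = 0.00017), and the groups did not overlap. Its estimated counts are not all whole numbers, which is the case where reads are divided between features (split reads), so they are less certain. Tested against a fold change of 1.5 (glmTreat), Mx2 had an adjusted p of 0.064 and was no longer called. Oasl2, whose product resembles the RNA-sensing oligoadenylate synthetases, was measured at 1.19 and 1.46 CPM in siScramble and 1.94 and 2.41 CPM in siTbk1 replicates 2 and 3. Rsad2, an antiviral radical SAM enzyme gene, measured 1.90 and 1.52 CPM in siScramble and 2.70 and 2.68 CPM in siTbk1 replicates 2 and 3. For both genes the groups did not overlap, and the counts were low (297 and 379 over the 4 samples). The log2 fold change of Oasl2 was 0.71 (standard error 0.22, edgeR adjusted p = 0.017) and that of Rsad2 was 0.65 (standard error 0.19, edgeR adjusted p = 0.012). With DESeq2, neither passed (adjusted p = 0.089 for Oasl2 and 0.077 for Rsad2), and neither passed glmTreat. Without siScramble replicate 2 or siTbk1 replicate 3, Oasl2 had adjusted p-values of 0.096 and 0.12 in edgeR, and without siScramble replicate 3 Rsad2 had an adjusted p of 0.092.

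**Figure D1:**
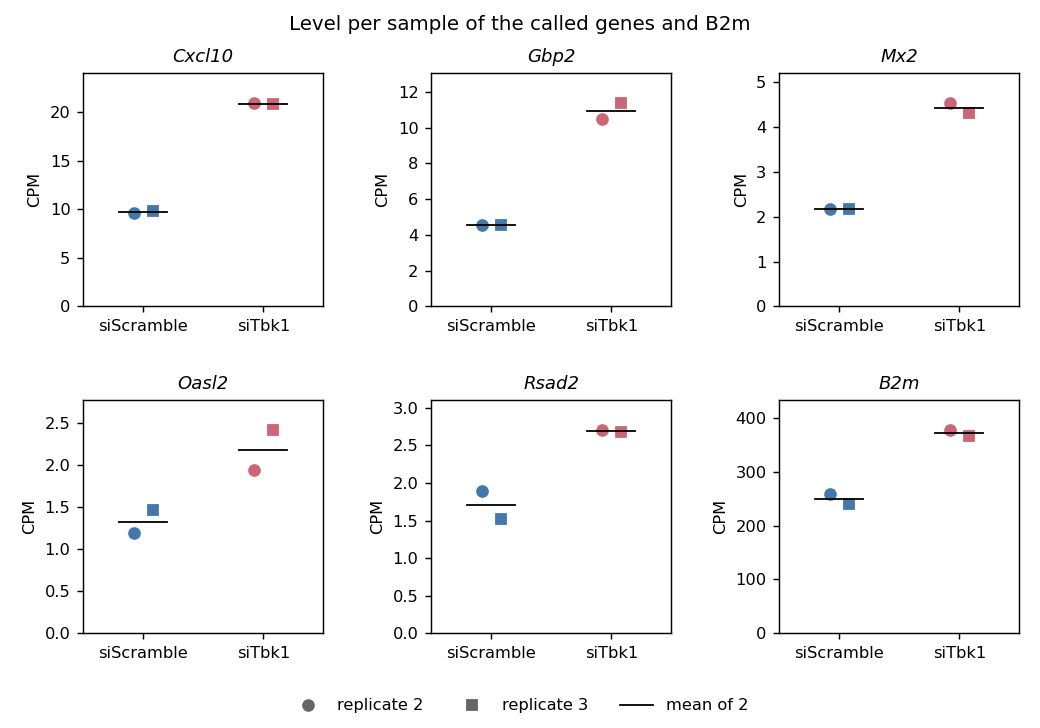
Level of the 5 called genes and of B2m in each sample, in counts per scaled library of 1000000 (CPM, y axis, starting at 0), for siScramble-treated (blue) and siTbk1-treated (red) cells, with circles for replicate 2, squares for replicate 3 and a line at the mean of the 2. For Cxcl10, the siTbk1 samples lie at 20.9 and 20.8 CPM against 9.66 and 9.80 CPM in control cells, and in no panel do the groups overlap.

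The DNA upstream of these genes was searched for the ISRE core, written GAAANNGAAA (TTTCNNTTTC on the other strand), and for the gamma-activated site TTCNNNGAA, which reads the same on both strands. The search covered the 250 bases before the start of each gene in RefSeq (build GRCr8), a table that held 35 of the 48 genes and 33 of the 43 genes with counts. The ISRE core was found in 19 of these 33 upstream windows (57.6%), against 3.29% of the 27457 windows in the table, and the gamma-activated site in 7 of 33 (21.2%), against 7.52%. The genes were listed for their known response to interferon, so the share is a description of the list. Upstream windows of 4 of the called genes are shown, because each holds the ISRE core. For Mx2, the remaining called gene, no window was matched, so it was not searched. Also shown are the windows of Bst2 and Psmb10, which hold the core as well and whose transcripts were lower in siTbk1-treated cells. Capitals mark the ISRE core and, in Bst2, a gamma-activated site that overlaps it.
Cxcl10 (GRCr8 chr14:15988816-15989065, + strand): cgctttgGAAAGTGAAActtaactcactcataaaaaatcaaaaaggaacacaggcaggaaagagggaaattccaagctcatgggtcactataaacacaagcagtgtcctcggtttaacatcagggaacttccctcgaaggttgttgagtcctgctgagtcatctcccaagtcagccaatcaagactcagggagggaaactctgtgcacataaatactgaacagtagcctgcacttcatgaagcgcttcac
Gbp2 (GRCr8 chr2:234005477-234005726, + strand): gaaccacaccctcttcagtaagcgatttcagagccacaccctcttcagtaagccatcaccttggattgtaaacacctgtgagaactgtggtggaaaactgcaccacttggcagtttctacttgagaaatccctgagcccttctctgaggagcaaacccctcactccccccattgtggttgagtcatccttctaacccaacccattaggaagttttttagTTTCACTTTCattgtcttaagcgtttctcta
Oasl2 (GRCr8 chr12:47383186-47383435, - strand): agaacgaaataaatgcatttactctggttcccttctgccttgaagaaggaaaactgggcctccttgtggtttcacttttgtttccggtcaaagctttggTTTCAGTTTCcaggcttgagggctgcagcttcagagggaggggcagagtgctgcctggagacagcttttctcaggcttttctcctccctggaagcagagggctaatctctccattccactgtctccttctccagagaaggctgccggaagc
Rsad2 (GRCr8 chr6:48788121-48788370, - strand): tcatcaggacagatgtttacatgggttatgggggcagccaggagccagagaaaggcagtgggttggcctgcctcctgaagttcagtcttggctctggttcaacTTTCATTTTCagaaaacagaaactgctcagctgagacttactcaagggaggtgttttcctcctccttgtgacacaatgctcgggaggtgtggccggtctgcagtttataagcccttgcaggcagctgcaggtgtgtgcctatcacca
Bst2 (GRCr8 chr16:18254968-18255217, - strand): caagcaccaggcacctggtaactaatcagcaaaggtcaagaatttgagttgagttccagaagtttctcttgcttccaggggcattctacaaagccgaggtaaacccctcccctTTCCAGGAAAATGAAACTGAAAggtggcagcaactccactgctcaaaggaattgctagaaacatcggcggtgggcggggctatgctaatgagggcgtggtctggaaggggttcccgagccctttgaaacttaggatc
Psmb10 (GRCr8 chr19:50743293-50743542, - strand): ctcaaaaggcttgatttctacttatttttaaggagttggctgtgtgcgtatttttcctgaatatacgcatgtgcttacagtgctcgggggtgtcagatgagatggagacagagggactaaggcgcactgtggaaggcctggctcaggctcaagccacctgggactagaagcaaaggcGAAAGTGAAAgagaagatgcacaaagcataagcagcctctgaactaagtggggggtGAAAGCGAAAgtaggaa

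The motif begins 243 bases before the start in Cxcl10, 31 in Gbp2, 151 in Oasl2 and 147 in Rsad2. Bst2 holds a pair of overlapping copies, beginning 131 and 125 bases before the start, and Psmb10 holds copies at 73 and 17 bases. By response, 9 of the 15 matched genes past an adjusted p of 0.05 and higher in siTbk1-treated cells had the ISRE core, as did 5 of the 5 that were lower and 5 of the 11 that did not pass. The motif was thus present upstream of genes that moved in either direction. B2m has it 150 bases and Parp14 76 bases before the start, and none was found in the windows of Cmpk2, Dtx3l, Stat2 or Irf1.

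At any fold, 20 of the 41 genes were higher at an adjusted p under 0.05 and 7 were lower. These were 48.8% and 17.1% of the 41 genes, against 24.4% and 24.8% of all tested genes. Over the 41 genes the log2 fold change had a median of 0.215, and over all tested genes of 0.007, with 27 of the 41 above 0 and 14 below. Both siTbk1 samples lay above both siScramble samples for 25 of the 41 genes (61.0%, against 38.7% of all tested genes) and below them for 9 (22.0%, against 37.9%). In each of the 27 genes past the threshold, the samples of the 2 groups did not overlap. These genes were selected by a test on the same samples, so the lack of overlap adds no separate support. With DESeq2, 13 of the 20 higher genes and all of the 7 lower genes passed. Several of the genes that passed the adjusted p without reaching 1.5-fold did not pass it when 1 library was left out. Without siTbk1 replicate 2, the edgeR adjusted p was 0.31 for Irf1, 0.37 for Ddx58, 0.12 for Oas1a, 0.36 for Psmb8 and 0.052 for Rtp4. Without siScramble replicate 3, it was 0.095 for Irf1, 0.11 for Ddx58, 0.068 for Oas1a, 0.082 for Psmb8, 0.062 for Rtp4, 0.053 for Bst2 and 0.063 for Lgals3bp. Without siTbk1 replicate 3, it was 0.13 for Bst2, 0.19 for Lgals3bp and 0.16 for Psmb10, and without siScramble replicate 2, 0.068 for Irf1 and 0.056 for Oas1a. With scaling by library size alone, Irf1 (edgeR adjusted p = 0.10), Ddx58 (0.089) and Psmb8 (0.061) did not pass either.

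**Figure D2:**
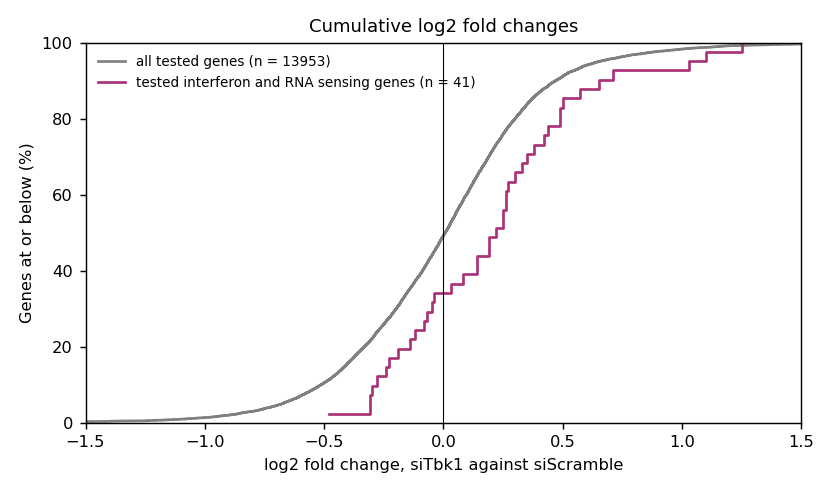
Cumulative share of genes (y axis, %) at or below a given log2 fold change of siTbk1-treated against siScramble-treated cells (x axis, cut at 1.5 on either side of 0) for the 41 tested interferon-stimulated and RNA sensing genes (purple) and all 13953 tested genes (grey). The purple curve lies to the right of the grey one, with medians of 0.215 and 0.007.

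The genes of the receptor complex did not move together. Ifnar2, the chain that binds interferon first and holds it, measured 20.03 and 19.97 CPM in siScramble and 25.0 and 24.0 CPM in siTbk1 replicates 2 and 3 (log2 fold change 0.30, standard error 0.072, edgeR adjusted p = 0.0048). The other chain, Ifnar1, measured 51.6 and 50.5 CPM in siScramble and 48.3 and 51.0 CPM in siTbk1 replicates 2 and 3, and its groups overlapped (log2 fold change −0.04, standard error 0.061). The receptor kinases moved in opposite directions. Jak1 rose from 328 and 314 CPM to 377 and 388 CPM in replicates 2 and 3 (log2 fold change 0.25, standard error 0.052, edgeR adjusted p = 0.0017). Tyk2 fell from 35.4 and 36.8 CPM to 26.9 and 24.7 CPM, the largest decrease among the 41 genes in this fit (log2 fold change −0.48, standard error 0.071, edgeR adjusted p = 0.00017). Tyk2 stayed short of the fold change limit. After a correction for the genomic span of genes, in which each library's trend along the distance from start to stop was removed, Jak1 no longer passed (log2 fold change 0.14, edgeR adjusted p = 0.054).

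Of the 5 transcription factor genes, Stat2, Irf1 and Irf2 rose slightly and none fell at an adjusted p under 0.05. These were 60% and 0%, against 24.4% and 24.8% of all tested genes. Stat2, the STAT protein particular to interferon signalling, measured 21.5 and 21.2 CPM in siScramble and 25.6 CPM in both siTbk1 samples (log2 fold change 0.26, standard error 0.070, edgeR adjusted p = 0.0082). Irf2, a repressor at interferon-responsive promoters, measured 37.9 and 37.8 CPM in siScramble and 44.7 and 45.8 CPM in siTbk1 replicates 2 and 3 (log2 fold change 0.26, standard error 0.061, edgeR adjusted p = 0.0041). Its activating counterpart Irf1 was at 29.6 and 29.4 CPM in siScramble and at 34.8 and 32.4 CPM in siTbk1 replicates 2 and 3 (log2 fold change 0.19, standard error 0.068, edgeR adjusted p = 0.035). None of these changes exceeded 1.20-fold. The groups did not overlap in any of the 5 genes, with the siTbk1 samples above in these 3 (60%) and below in Irf7 and Irf9 (40%). Of all tested genes, 38.7% and 37.9% were separated in this way. Irf1 did not pass with DESeq2 (adjusted p = 0.11), and Irf2 did not pass after the correction for genomic span (edgeR adjusted p = 0.072). Irf7, which amplifies interferon transcription, had a log2 fold change of −0.12 (standard error 0.10, edgeR adjusted p = 0.34) and Irf9, the DNA-binding partner of the STAT proteins, of −0.24 (standard error 0.12, edgeR adjusted p = 0.10).

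Among the genes for sensors and RNA-binding antiviral enzymes, 4 of the 7 tested were higher at an adjusted p under 0.05 and 1 was lower (57.1% and 14.3%, against 24.4% and 24.8% of all tested genes). The kinase gene Eif2ak2 (PKR), which stops translation upon binding double-stranded RNA, measured 84.4 and 74.2 CPM in siScramble and 98.0 and 104 CPM in siTbk1 replicates 2 and 3 (log2 fold change 0.35, standard error 0.068, edgeR adjusted p = 0.0012). The RIG-I gene Ddx58 measured 10.3 and 9.92 CPM in siScramble and 13.0 and 11.3 CPM in siTbk1 replicates 2 and 3 (log2 fold change 0.27, standard error 0.10, edgeR adjusted p = 0.041). Ddx58 did not pass with DESeq2 (adjusted p = 0.14) or after the correction for genomic span (edgeR adjusted p = 0.079). Oas1a, an oligoadenylate synthetase gene, was at 3.14 and 3.11 CPM in siScramble and at 4.40 and 4.08 CPM in siTbk1 replicates 2 and 3 (log2 fold change 0.44, standard error 0.14, edgeR adjusted p = 0.021). It has split reads, and DESeq2 gave it an adjusted p of 0.13. Adar, which edits adenosine in double-stranded RNA and so limits its recognition, went the other way, from 87.1 and 88.9 CPM to 75.6 and 74.1 CPM (log2 fold change −0.23, standard error 0.055, edgeR adjusted p = 0.0041). The MDA5 gene Ifih1 had a log2 fold change of 0.25 (standard error 0.13, edgeR adjusted p = 0.14), and Dhx58 (LGP2), the regulator of both helicases, of −0.08 (standard error 0.081, edgeR adjusted p = 0.47).

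**Figure D3:**
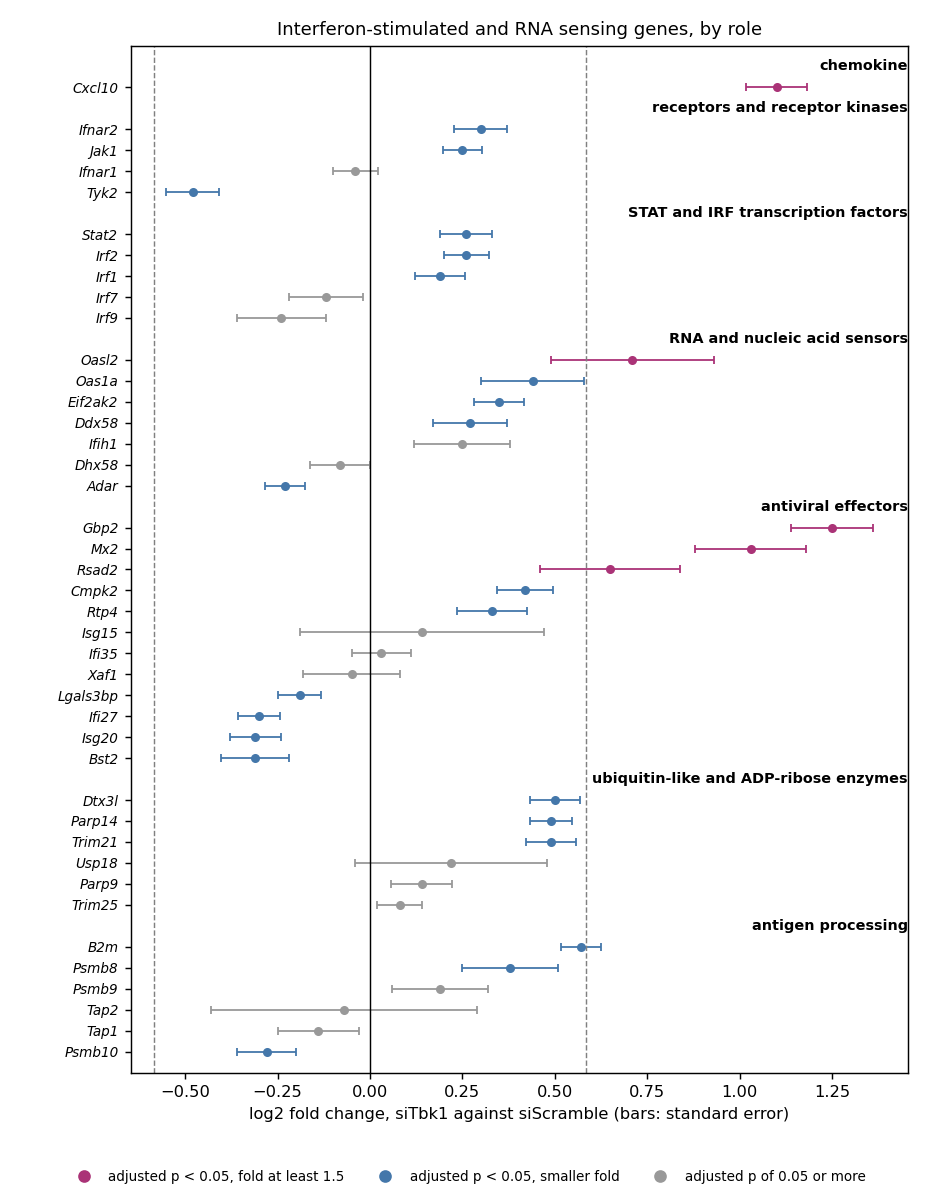
Log2 fold change of siTbk1-treated against siScramble-treated cells (x axis) with its standard error (bars) for the 41 tested genes, grouped by role (y axis), with dashed lines at a fold change of 1.5 in either direction. Purple marks the 5 called genes, blue the other 22 genes past an adjusted p of 0.05, and grey the 14 genes that did not pass; the values run from −0.48 for Tyk2 to 1.25 for Gbp2.

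Of the 12 tested antiviral effector genes, 5 were higher and 4 lower at an adjusted p under 0.05 (41.7% and 33.3%, against 24.4% and 24.8% of all tested genes). Beside Gbp2, Mx2 and Rsad2, the higher genes were Cmpk2 and Rtp4. Cmpk2, a nucleotide kinase gene that lies 14.1 kb from Rsad2 on chromosome 6 and is read in the opposite direction, measured 15.9 CPM in both siScramble samples and 21.3 CPM in both siTbk1 samples (log2 fold change 0.42, standard error 0.075, edgeR adjusted p = 0.00063). Rtp4, a chaperone of membrane receptors, was at 9.64 and 9.06 CPM in siScramble and 11.9 and 11.6 CPM in siTbk1 replicates 2 and 3 (log2 fold change 0.33, standard error 0.094, edgeR adjusted p = 0.011), and with DESeq2 its adjusted p was 0.056. For both genes replicates of a group lay close together.

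The lower effector genes were Isg20, Bst2, Ifi27 and Lgals3bp. Isg20, an exonuclease gene, measured 54.3 and 60.5 CPM in siScramble and 47.8 and 44.6 CPM in siTbk1 replicates 2 and 3 (log2 fold change −0.31, standard error 0.070, edgeR adjusted p = 0.0028), with split reads. The tetherin gene Bst2, which holds budding virus at the cell surface, went from 19.6 and 21.6 CPM to 17.8 and 15.2 CPM (log2 fold change −0.31, standard error 0.092, edgeR adjusted p = 0.014). In both genes every siTbk1 sample lay below every siScramble sample. Ifi27, an interferon-inducible gene, measured 172 and 184 CPM in siScramble and 149 and 141 CPM in siTbk1 replicates 2 and 3 (log2 fold change −0.30, standard error 0.057, edgeR adjusted p = 0.0010). Lgals3bp, which encodes a secreted glycoprotein, measured 230 and 239 CPM in siScramble and 215 and 196 CPM in siTbk1 replicates 2 and 3 (log2 fold change −0.19, standard error 0.058, edgeR adjusted p = 0.016). After the correction for genomic span, Bst2 (edgeR adjusted p = 0.067) and Lgals3bp (edgeR adjusted p = 0.14) did not pass. Ifi35 and Xaf1 had log2 fold changes of 0.03 and −0.05 with overlapping groups, and the sign of either changed under some alternatives.

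Of the 6 genes for ubiquitin-like and ADP-ribose enzymes, 3 were higher at an adjusted p under 0.05 (50.0%, against 24.4% of all tested genes) and none was lower (against 24.8%). Parp14, a mono-ADP-ribosyltransferase gene, measured 72.0 and 68.5 CPM in siScramble and 99.9 and 97.0 CPM in siTbk1 replicates 2 and 3 (log2 fold change 0.49, standard error 0.057, edgeR adjusted p = 4.2e-05). Dtx3l, a ubiquitin ligase gene, measured 23.2 and 22.3 CPM in siScramble and 32.5 and 31.9 CPM in siTbk1 replicates 2 and 3 (log2 fold change 0.50, standard error 0.068, edgeR adjusted p = 0.00011). Trim21, which encodes a ligase that detects antibody-bound virus in the cytosol, was at 49.7 and 44.9 CPM in siScramble and 64.7 and 68.8 CPM in siTbk1 replicates 2 and 3 (log2 fold change 0.49, standard error 0.067, edgeR adjusted p = 0.00011). The 3 genes rose by nearly the same fold, 1.40 to 1.41, below the limit of 1.5, and Trim21 has split reads. Parp9, whose product binds that of Dtx3l and whose gene is read in the opposite direction from a start 1.13 kb away, measured 23.3 and 21.0 CPM in siScramble and 23.2 and 25.8 CPM in siTbk1 replicates 2 and 3. Its groups overlapped (log2 fold change 0.14, standard error 0.083, edgeR adjusted p = 0.18), and the difference between Parp9 and Dtx3l was not tested. Usp18, which removes Isg15 from proteins, had a log2 fold change of 0.22 (standard error 0.26) and Trim25, a ligase for RIG-I, of 0.08 (standard error 0.060), and neither passed.

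In antigen processing, B2m stood out from the genes for the peptide supply. B2m, the light chain of class I molecules (chromosome 3, 114087287 to 114093310), measured 258 and 241 CPM in siScramble and 377 and 365 CPM in siTbk1 replicates 2 and 3. At 1.49-fold (log2 fold change 0.57, standard error 0.054, edgeR adjusted p = 9.9e-06) it lay just below the limit of 1.5. Without siScramble replicate 2 or siTbk1 replicate 3, and after the correction for genomic span, its log2 fold change was 0.62, 0.60 and 0.67, and it was called. Of the immunoproteasome subunit genes, Psmb8 measured 5.83 and 5.45 CPM in siScramble and 8.12 and 6.47 CPM in siTbk1 replicates 2 and 3 (log2 fold change 0.38, standard error 0.13, edgeR adjusted p = 0.032). Psmb10 fell from 33.0 and 34.4 CPM to 30.0 and 25.6 CPM (log2 fold change −0.28, standard error 0.081, edgeR adjusted p = 0.013). Psmb9 had a log2 fold change of 0.19 (standard error 0.13, edgeR adjusted p = 0.27), so the 3 subunit genes did not share a direction past the test. Psmb8, which has split reads, did not pass with DESeq2 (adjusted p = 0.11), and Psmb10 did not pass after the correction for genomic span (edgeR adjusted p = 0.094). Tap1, a peptide transporter gene that starts 0.188 kb from Psmb9, had a log2 fold change of −0.14 (standard error 0.11) with overlapping groups.

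Tap2, the partner of Tap1, was the most variable of the tested genes. Its estimated counts were 64.0 and 77.4 in siScramble and 40.7 and 87.1 in siTbk1 replicates 2 and 3, with split reads, and the groups overlapped (log2 fold change −0.07, standard error 0.36, edgeR adjusted p = 0.89). Without siTbk1 replicate 3 its log2 fold change was −0.89, and without siTbk1 replicate 2 it was 0.49. The direction thus depended on which library was left out. Isg15, the ubiquitin-like protein gene that interferon induces most widely, had estimated counts of 25 and 20 in siScramble and 27 and 21 in siTbk1 replicates 2 and 3 (log2 fold change 0.14, standard error 0.33, edgeR adjusted p = 0.75). Oasl, an oligoadenylate synthetase-like gene 12.7 kb from Oasl2, had estimated counts of 11 and 3 in siScramble and 9 and 10 in siTbk1 replicates 2 and 3, and was not tested. Mx1, the antiviral GTPase gene related to Mx2, had at most 7 counts in any sample. Isg15 did not pass the test, Oasl and Mx1 were too low to be tested, and counts of these interferon targets were low in both groups.

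**Figure D4:**
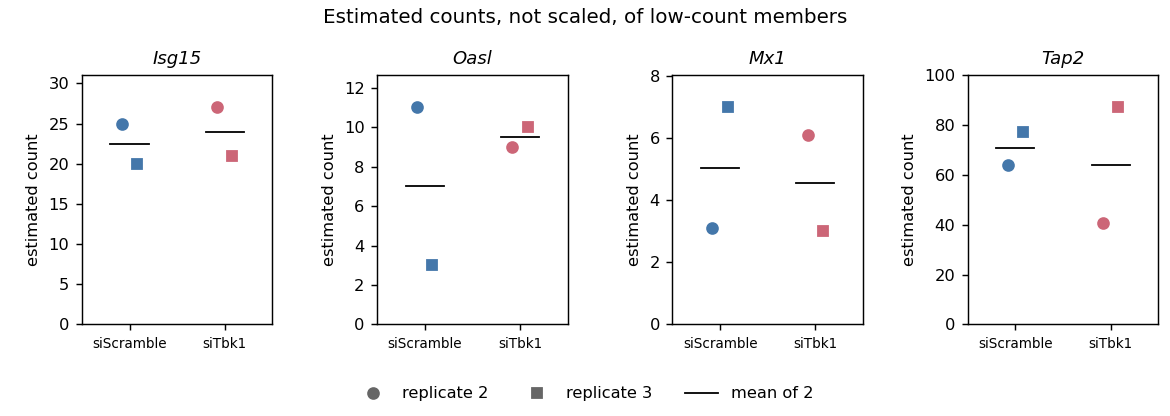
Estimated counts as deposited, not scaled between samples (y axis, starting at 0), of Isg15, Oasl, Mx1 and Tap2 in siScramble-treated (blue) and siTbk1-treated (red) cells, with circles for replicate 2, squares for replicate 3 and a line at the mean of the 2. The unscaled counts of the groups overlap in all 4 panels, although after library scaling those of Isg15 do not (0.521 and 0.505 against 0.574 and 0.556 CPM), and Mx1 does not exceed 7 counts.

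A second list of 98 genes that are not among the 48 was examined in the same fit, and 73 of them were in the table and 70 were tested. It held other interferon, receptor, STAT, IRF and feedback genes, sensors and adaptors, interferon-stimulated genes and antigen presentation genes. Not all of them are particular to interferon signalling. Of the 70, 5 were called higher and 5 lower (7.14% each, against 4.81% and 6.18% of all tested genes). At any fold, 21 were higher and 13 lower at an adjusted p under 0.05 (30.0% and 18.6%, against 24.4% and 24.8% of all tested genes). The median log2 fold change of the 70 genes was 0.021. The interferon genes Ifnb1, Ifna1 and Ifng were listed and not analysed here.

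The genes called higher included Cxcl11, Il10rb, Trim34 and Erap1. Cxcl11, a chemokine for the same receptor as Cxcl10, lies 12.4 kb from it and measured 5.37 and 5.33 CPM in siScramble and 12.2 CPM in both siTbk1 samples (log2 fold change 1.19, standard error 0.10, edgeR adjusted p = 5.0e-06). The neighbouring chemokine genes rose by 2.15-fold (Cxcl10) and 2.28-fold (Cxcl11). Il10rb, a receptor chain shared by interleukin-10 and lambda interferon, lies 1.68 kb from Ifnar2 on the same strand and rose from 10.0 and 9.92 CPM to 22.9 and 22.3 CPM (log2 fold change 1.18, standard error 0.081, edgeR adjusted p = 1.1e-06). Along this stretch of chromosome 11 the log2 fold change was thus 0.30 for Ifnar2, 1.18 for Il10rb and −0.04 for Ifnar1. Trim34 had a log2 fold change of 0.66 (standard error 0.097) and Erap1, which trims peptides for class I molecules and has split reads, of 0.65 (standard error 0.060). The class I genes RT1-A1 and RT1-A2 of this list had log2 fold changes of −0.02 (standard error 0.050) and −0.19 (standard error 0.12). Both have split reads, and the groups overlapped in both.

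The genes called lower were Trex1, Socs3, Irf2bpl, Adarb1 and Parp10. Trex1, a nuclease that removes cytosolic DNA, measured 4.71 and 4.90 CPM in siScramble and 2.47 and 2.49 CPM in siTbk1 replicates 2 and 3 (log2 fold change −0.95, standard error 0.14, edgeR adjusted p = 2.0e-04). Socs3, a feedback inhibitor of JAK kinases, fell from 2.77 and 2.50 CPM to 1.28 and 1.54 CPM (log2 fold change −0.92, standard error 0.19, edgeR adjusted p = 0.0020). The groups did not overlap in either gene. Adarb1, an adenosine deaminase gene related to Adar, had a log2 fold change of −0.64 (standard error 0.065, edgeR adjusted p = 1.6e-05), Irf2bpl of −0.68 (standard error 0.16) and Parp10 of −0.59 (standard error 0.076). Irf2bpl fell short of the fold change limit without siScramble replicate 3 or siTbk1 replicate 3 and after the correction for genomic span (log2 fold change −0.55, −0.44 and −0.58), and Parp10 without siScramble replicate 3 and after that correction (−0.53 and −0.51). Of the 10 called genes of this list, Cxcl11 and Il10rb passed glmTreat and the other 8 did not.

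The 5 further genes with the smallest p-values on the second list were Stat3, Tmem173, Igtp, Zc3hav1 and Irgm. Tmem173 (STING), the adaptor that recruits TBK1 when DNA is sensed, measured 18.6 and 18.0 CPM in siScramble and 27.2 and 26.6 CPM in siTbk1 replicates 2 and 3 (log2 fold change 0.56, standard error 0.072, edgeR adjusted p = 7.7e-05). The immunity-related GTPase genes Igtp and Irgm had log2 fold changes of 0.56 (standard error 0.074) and 0.58 (standard error 0.087), and Zc3hav1, which encodes an antiviral RNA-binding protein, of 0.37 (standard error 0.054). Stat3 fell from 239 and 246 CPM to 178 and 165 CPM (log2 fold change −0.50, standard error 0.055, edgeR adjusted p = 2.8e-05). Among the 13 tested STAT, IRF and feedback genes of this list, 7 were lower and 2 higher at an adjusted p under 0.05 (53.8% and 15.4%, against 24.8% and 24.4% of all tested genes).

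**Figure D5:**
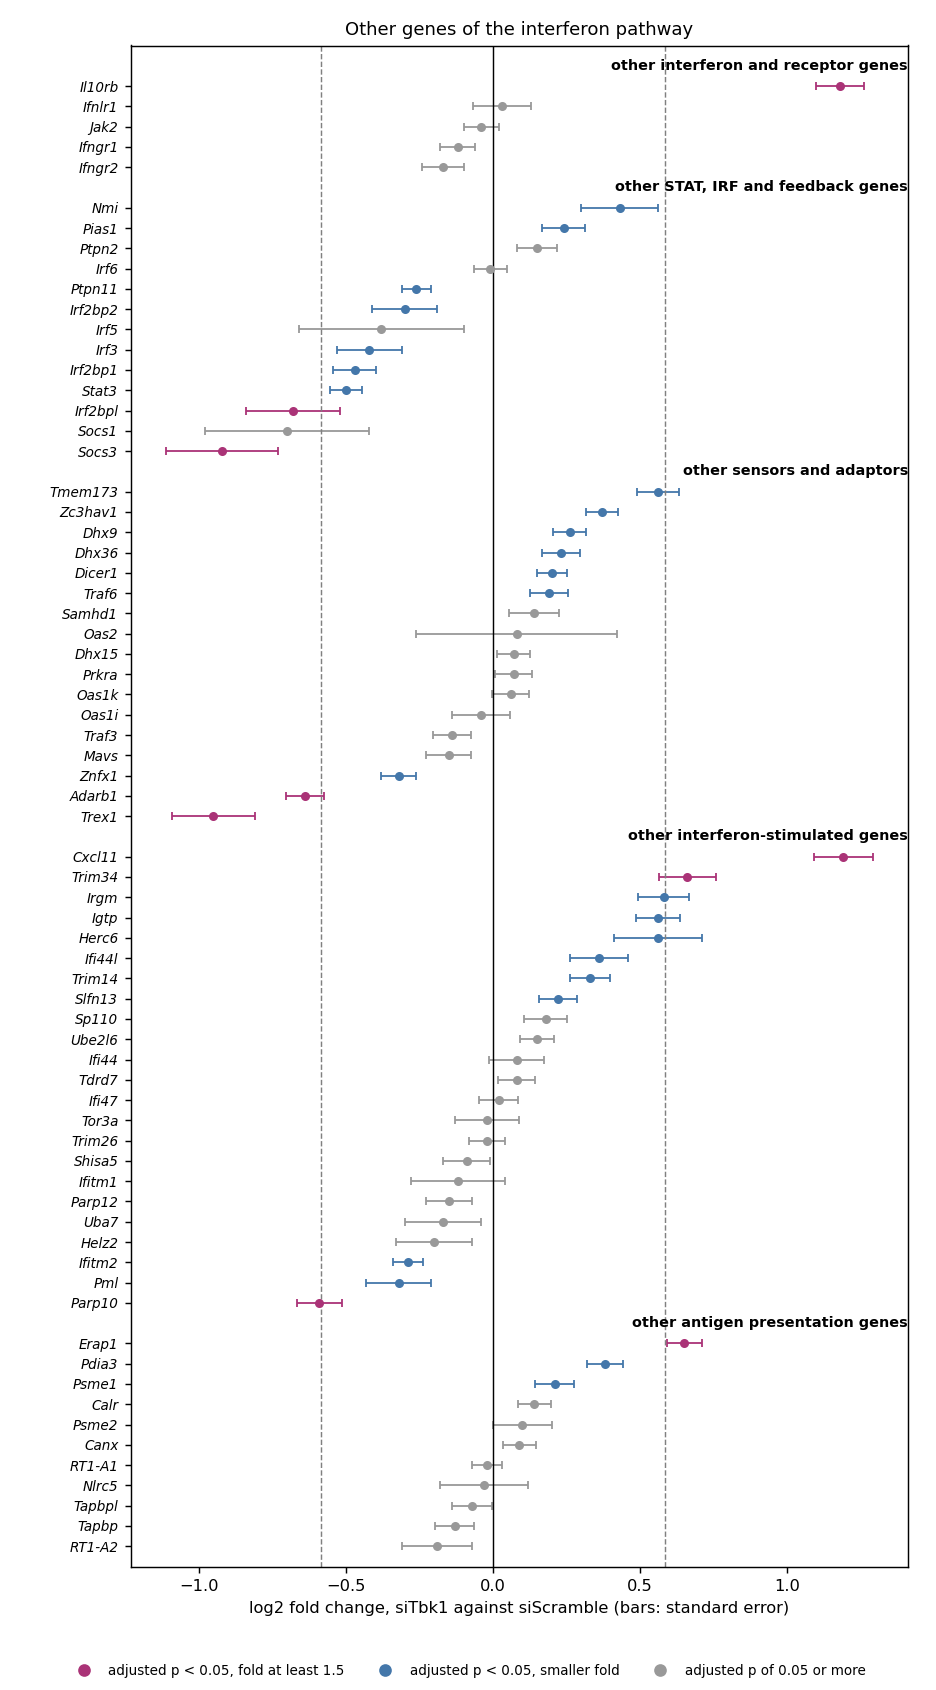
Log2 fold change of siTbk1-treated against siScramble-treated cells (x axis) with its standard error (bars) for 69 of the 70 tested genes of the second list, by role (y axis), with dashed lines at a fold change of 1.5 in either direction. Purple marks 4 of the 5 genes called higher, led by Cxcl11 at 1.19, and the 5 called lower, led by Trex1 at −0.95; blue marks the other genes past an adjusted p of 0.05, and grey those that did not pass.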

How the data were processed

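RNA sequencing gave transcript levels in 2 siScramble-treated and 2 siTbk1-treated samples, grouped by the submitters' labels. The submitters' processing notes name STAR (version 2.6.1d), Partek and the build rn6, and the counting settings and annotation version are not given in the sources used here. The deposited values are estimated counts per gene, of which 3909 genes (25.8%) have a count more than 0.01 from a whole number. They were rounded, filterByExpr (minimum count 10) kept 13953 genes and removed 1219, and libraries were scaled by TMM. Groups were compared in R 4.3.3 with the quasi-likelihood test of edgeR 4.0.16, with Benjamini-Hochberg adjustment over all tested genes, and calls needed an adjusted p below 0.05 together with a 1.5-fold change or more. DESeq2 1.42.0 and limma 3.58.1 (voom) were alternatives, beside other scalings, filters and thresholds, a correction for genomic span, a replicate block and leaving out each library. The script was tested on simulated data with known changes. A count of 3 corresponds to 0.0628 to 0.0781 CPM. This covers counting error only. Normalized counts are CPM times the mean scaled library size.

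All listed genes in the table could be named, with values in every sample for those called, past the adjusted p, or with low counts. Of the second list, the called genes and the 5 others with the smallest p were named. A few others of that list, such as RT1-A1 and RT1-A2, were added after their values were seen. The genes and lists were chosen with earlier results of these data known. Upstream windows came from RefSeq (GRCr8), whereas gene positions are those of the table (rn6). Of that list, 1 gene is counted and is not reported here by name.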

Additional observations from a re-analysis of the deposited data

How the results depend on the processing

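With 2 samples per group and low counts, the changes of genes such as Oasl2, Rsad2 and Tap2 varied with the library left out. The log2 fold change then stayed above 0 for Oasl2 (0.55 to 0.86) and Rsad2 (0.50 to 0.83). That of Tap2 ran from −0.89 to 0.49. Without a fold change limit, 3405 genes were higher and 3459 lower, with 20 and 7 of the 41 interferon-stimulated and RNA sensing genes and 21 and 13 of the second list. With glmTreat these numbers were 163 and 101, 2 and 0, and 2 and 0. DESeq2 called 495 of all tested genes higher (671 in the main fit) and 3 of the 41 genes, and 13 of the 41 were higher at any fold. After the correction for genomic span, 758 of all tested genes (862 in the main fit) and 3 genes of the second list were called lower. At any fold, 4 of the 41 genes were then lower. For DESeq2 and the span correction, all tested genes were not counted at any fold. Leaving out 1 library gave 552 to 756 genes called higher and 574 to 1159 called lower, the lowest without siTbk1 replicate 3 (552) and without siScramble replicate 3 (574). Of the 41 genes it gave 4 to 5 called higher and 0 to 1 called lower (Tap2, without siTbk1 replicate 3), and at any fold 14 to 19 higher and 5 to 8 lower. Of the second list it gave 6 to 8 higher (8 without siScramble replicate 2) and 3 to 5 lower (3 without siScramble replicate 3), and Tbk1 had log2 fold changes of −2.16 to −2.01. The sign changed for Ifi35 with library size alone (−0.02) and without siScramble replicate 3 (−0.06) or siTbk1 replicate 2 (−0.05), up to 0.12 when another was left out, for Xaf1 after the correction for genomic span (0.01) and without siScramble replicate 3 (0.02), down to −0.12 when another was left out, and for Tap2 without siScramble replicate 3 (0.21) or siTbk1 replicate 2 (0.49), down to −0.89 without siTbk1 replicate 3. The cause was not tested.

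The deviations of same-numbered samples had a Pearson r of 0.0041 and a Spearman rho of −0.2 (across genes, which are not independent replicates). The labels give no shared origin, so the numbers were not taken as pairs. Total counts of same-numbered samples were close (siScramble 47443061 and siTbk1 47759013 for replicate 2, 38811919 and 38428926 for replicate 3). Whether the numbers mark a shared batch was not tested. With the replicate number as a block, 699 genes were called higher and 898 lower, and 5 and 0 of the 41 genes. At any fold 18 were higher and 7 lower, with Irf1 (edgeR adjusted p = 0.084) and Ddx58 (edgeR adjusted p = 0.051) no longer past the threshold. Crossing the numbers between groups gave 648 calls of higher and 872 of lower genes, with 5 and 0 of the 41 genes, and this alternative was chosen after seeing the data.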

Other observations

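Among genes of the second list that were too low to be tested, Gbp5, a guanylate-binding protein gene named here after its values were seen, had estimated counts of 0 and 1 in siScramble and 15 and 7 in siTbk1 replicates 2 and 3. Its family member Gbp2 was 2.39-fold higher in siTbk1-treated cells, and the related GTPase genes Igtp and Irgm had log2 fold changes of 0.56 and 0.58. Another immunity-related GTPase gene, Ifi47, had a log2 fold change of 0.02 (standard error 0.066) with overlapping groups, and Gbp4, also too low to be tested, had estimated counts of 3 and 1 in siScramble and 7 and 3 in siTbk1 replicates 2 and 3.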
